A study of Saccharomyces cerevisiae with 24 samples.

Results

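The response of wild-type yeast mRNA to hydrogen peroxide (H2O2) is described here as the difference between 2 H2O2 libraries and 2 unstressed libraries, which are 4 of the 24 libraries of the series. These libraries were taken by their labels alone, and of 5211 genes in the deposited count table the 5124 genes above 0 in wild type were used. The study sequenced poly(A) mRNA and ribosome footprints of the haploid laboratory strain BY4741, here called wild type, and of a zuo1Δ mutant that lacks a ribosome-associated chaperone, in 2 biological replicates a group. Cultures grew at 30 °C in synthetic complete medium with 2% glucose to an optical density (OD600) of 0.6. The H2O2 group was wild type exposed for 30 min to 0.25 mM H2O2, still at 30 °C. The heat group, used here only for contrast, was wild type brought to 37 °C for 45 min by an equal volume of warm fresh medium. The unstressed group was wild type harvested from the culture before any stress. H2O2 and the 30 min of further growth therefore cannot be told apart in the comparison with unstressed cells.

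Budding yeast senses peroxide largely through peroxiredoxins and related thiol peroxidases, and the transcription factor Yap1, oxidised through such a peroxidase, gathers in the nucleus and activates thioredoxin, glutathione and detoxification genes together with Skn7. The factors Msn2 and Msn4 drive a wider set of stress genes that many stresses share, and Hsf1 drives chaperone genes. Ribosomal protein and ribosome biogenesis genes are known to go down under many stresses that slow growth.

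Levels are given as CPM, a gene's count as parts in 1e+06 of the library total after division by a TMM scaling factor. TMM factors set the bulk of genes to no change, because the libraries differed in composition. The 4 libraries held 91921417 and 22601689 counts after H2O2, against 122213415 and 110894606 counts unstressed. The 50 highest genes took 40.6% and 27.2% of the counts after H2O2, against 56.6% and 48.4% unstressed. TMM factors were 0.794 and 1.28 for the H2O2 libraries and 0.390 and 0.498 for the unstressed ones. Scaling by library size alone moved the median log2 fold change of all genes up by 1.22, from -0.05 under TMM, so every change below is relative to the bulk of genes. Whether total mRNA per cell changed was not measured. Between replicates, the log2 ratio had an SD across genes of 0.541 after H2O2 and 0.747 unstressed. The 7 measured a-cell genes, which this mating type expresses, were counted in each of the 4 libraries, from ASG7 at 160 to 520 counts and MFA1 at 444 to 4121 counts up to STE2 at 19669 to 77891 counts. The alpha-cell gene STE3, at 146 to 301 counts, overlapped ASG7. Of the meiosis and sporulation genes, NDT80 had 0 counts, IME1 had 38 to 208 and DIT1 had 448 to 922. HIS3, of which BY4741 carries a partial deletion, had 1111 to 3384 counts.

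Of the 5124 genes, 133 passed (2.6%), of which 71 rose after H2O2 (1.39% of all tested) and 62 fell (1.21%), at an adjusted p under 0.05 in edgeR's quasi-likelihood test with Benjamini-Hochberg adjustment, fitted over the 12 mRNA libraries of both genotypes. The rises ran from 1.24 to 7.86 on the log2 scale with a median of 1.98, and the falls from -5.10 to -1.35 with a median of -2.15. Genes that rose had a median of 17.7 CPM unstressed. Genes that fell had a median of 929 CPM unstressed, against 39.8 CPM for all genes, and 39 of the 62 encode cytosolic ribosomal proteins. The groups did not overlap for any of the 133 genes, as was so for 51.5% of all genes, 26.3% with both H2O2 libraries higher and 25.2% with both lower. In edgeR the split into rises and falls depends on the scaling, with 1588 rises and 21 falls under library size alone and 46 rises and 56 falls with RLE factors. DESeq2, which differs in its test as well, gave 231 rises and 368 falls. Fewer genes passed whenever 1 of the 4 libraries was left out. A group of 1 library gives the test less to go on, so this loss cannot show whether single libraries carry the calls. The median log2 fold change of all genes then ran from -0.078 to 0.073, and 0 of the 133 genes changed direction. With all libraries 1158 genes had an unadjusted p under 0.05. The zuo1Δ libraries entered the estimate of spread and the joint scaling, and with wild-type libraries alone 114 genes passed and the median log2 fold change of all genes was 0.0153 in place of -0.05. In the wild-type heat libraries the 71 genes stood at medians of 0.616 and 0.805 on the log2 scale over unstressed wild type. In the library labelled zuo1Δ H2O2 replicate 2 they stood at 0.47 over unstressed zuo1Δ, against 1.12 in zuo1Δ H2O2 replicate 1. In the library labelled zuo1Δ heat replicate 1 they stood at 0.76, against 0.50 in zuo1Δ heat replicate 2. Whether these labels are right was not tested. Without these doubted libraries 34 genes passed, 30 higher and 4 lower. Of the 16 alternative settings tried, 14 was the most that any gene passed, which 5 genes did: SOL4, RGI1, HSP12, RPS30B and TMA10, a small protein gene below the abundance limit for naming (log2 fold change 4.07, adjusted p = 0.0207).

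**Figure D1:**
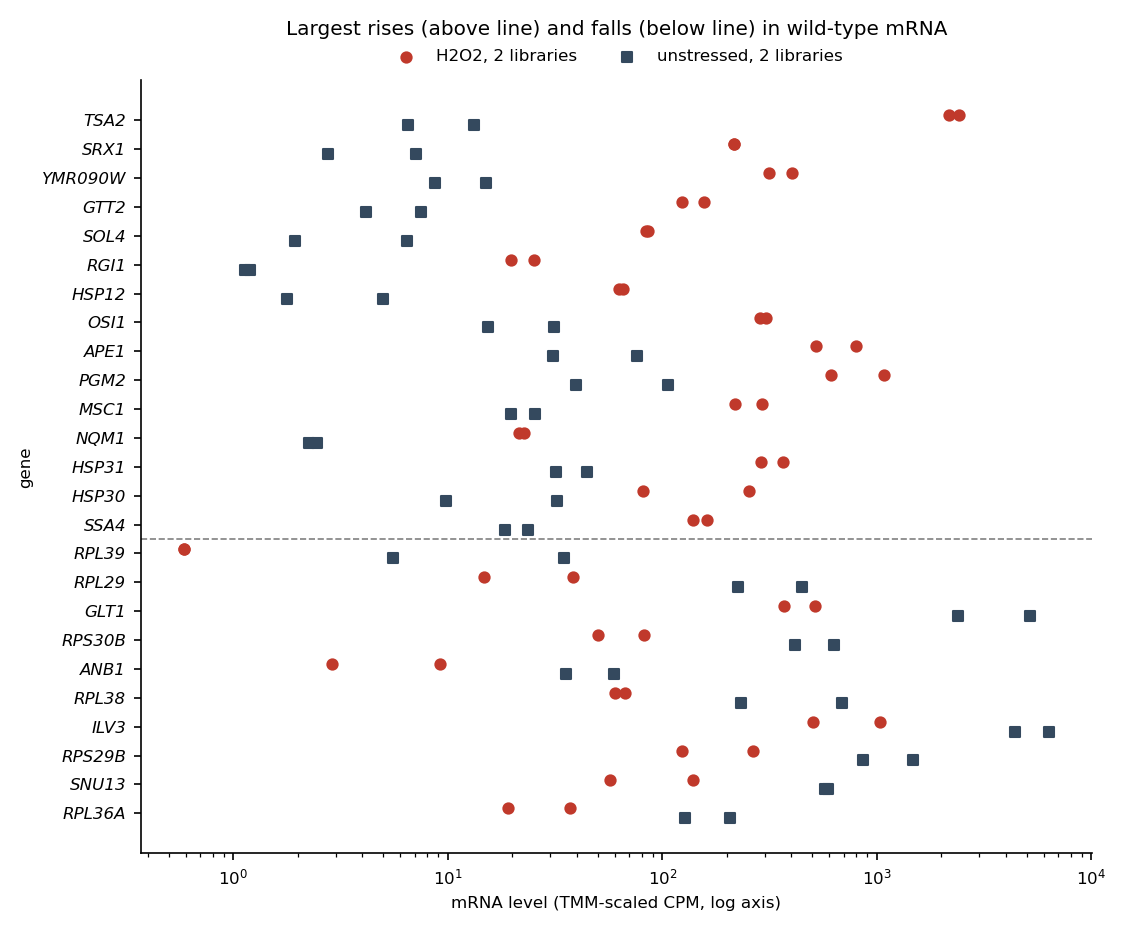
mRNA level in each library (TMM-scaled CPM, log axis) of the 15 largest rises, above the dashed line, and the 10 largest falls, below it. Circles are the 2 H2O2 libraries and squares the 2 unstressed libraries. TSA2 lies at 2179 and 2417 CPM after H2O2, against 13.3 and 6.51 CPM unstressed, and RPL39 at 0.589 and 0.588 CPM, against 5.54 and 35.0 CPM.

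Among the regulators of the response, 0 of 22 measured genes passed in edgeR, with 6 at an unadjusted p under 0.05 and with 3 calls in DESeq2 and 0 in limma-voom. Over all 5124 genes these counts were 133, 1158, 599 and 175 in that order. The same counts for the lists below stand beside these. Of these 22, 11 had both H2O2 libraries above both unstressed libraries and 2 had both lower, against 26.3% and 25.2% of all genes. YAP1 itself had 105 and 144 CPM after H2O2, against 31.6 and 45.7 CPM unstressed. Its libraries did not overlap, and its log2 fold change of 1.69 ± 0.51 (SE, here and below) missed the threshold at an adjusted p of 0.0828. CAD1, a close relative of YAP1, had 26.9 and 38.8 CPM after H2O2, against 16.5 and 13.6 CPM unstressed (log2 fold change 1.12, adjusted p = 0.0766). GCN4, the activator of amino acid synthesis genes, had 264 and 255 CPM after H2O2, against 457 and 1045 CPM unstressed (log2 fold change -1.53, adjusted p = 0.111). Its ribosome footprints lay the other way without passing, at 85.6 and 108 CPM after H2O2, against 25.3 and 43.7 CPM unstressed (log2 fold change 1.49). SKN7, MSN2, MSN4, RPN4 and HSF1 had log2 fold changes of -0.15, 0.34, 0.55, 0.32 and -0.14, with adjusted p of 0.366 or more. The groups overlapped for SKN7, MSN2 and HSF1 and did not for MSN4 and RPN4. YAP6, another relative of YAP1, was low, at 4.62 and 4.36 CPM after H2O2, against 2.56 and 1.16 CPM unstressed, and it also did not pass. In footprints 4 of the 22, YAP1, MSN2, MSN4 and HSF1, rose and 0 fell, beside 8.19% and 9.97% of all genes.

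The peroxiredoxin and thioredoxin genes held the largest rises of all. TSA2, a cytosolic peroxiredoxin (YDR453C, chromosome IV, 1365072-1365662 in build R64), had 2179 and 2417 CPM after H2O2, against 13.3 and 6.51 CPM unstressed. SRX1, the sulfiredoxin that repairs overoxidised peroxiredoxins (YKL086W, chromosome XI, 278281-278664), had 215 and 216 CPM after H2O2, against 7.09 and 2.77 CPM unstressed. Both genes stood far above the unstressed range in each H2O2 library, with log2 fold changes of 7.86 ± 1.86 (adjusted p = 0.0470) for TSA2 and 5.45 ± 1.22 (adjusted p = 0.0437) for SRX1. PRX1, the mitochondrial peroxiredoxin, had 547 and 398 CPM after H2O2, against 63.4 and 51.4 CPM unstressed, but missed the threshold (3.04 ± 0.82, adjusted p = 0.0639). DOT5, a nuclear peroxiredoxin, also did not pass (1.01, adjusted p = 0.120). In the list 2 of 11 genes rose and 0 fell, beside 1.39% and 1.21% of all genes. Without overlap 8 were higher and 1 lower, beside 26.3% and 25.2% of all genes, with a median log2 fold change of 1.13, against -0.05 for all genes. TRX2, TRR1 and TSA1 were chosen after their values were seen, because they are abundant. Thioredoxin TRX2 had 3116 and 1867 CPM after H2O2, against 653 and 358 CPM unstressed (adjusted p = 0.199). Thioredoxin reductase TRR1 had 4609 and 4401 CPM after H2O2, against 1067 and 1060 CPM unstressed (adjusted p = 0.165). TSA1, the main cytosolic peroxiredoxin and a close copy of TSA2, had 8864 and 3358 CPM after H2O2, against 4610 and 3089 CPM unstressed (log2 fold change 0.67, adjusted p = 0.667). Per kilobase of gene length, the level of TSA2 was 3889 CPM after H2O2 and 16.8 CPM unstressed, and that of TSA1 was 10340 CPM after H2O2 and 6513 CPM unstressed. How reads shared by the close copies were assigned is not given in the sources used here. The list took 2.08% and 2.13% of all counts after H2O2, against 0.393% and 0.349% unstressed. Such shares are of the library total, a scaling under which the median gene also rose, by 1.17 on the log2 scale.

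Of 24 glutathione and glutaredoxin genes, 1 rose and 1 fell, beside 1.39% and 1.21% of all genes. Without overlap 10 were higher and 6 lower, beside 26.3% and 25.2% of all genes. GTT2, a glutathione transferase, rose with 156 and 123 CPM after H2O2, against 7.47 and 4.16 CPM unstressed (4.59 ± 0.86, adjusted p = 0.0287). GRX4, a monothiol glutaredoxin that takes part in iron sensing, fell, at 16.7 and 17.3 CPM after H2O2, against 34.9 and 56.4 CPM unstressed (-1.42 ± 0.34, adjusted p = 0.0470). ECM4, an omega-class glutathione transferase, had 244 CPM in each H2O2 library, against 16.2 and 15.3 CPM unstressed, and did not pass (3.95 ± 1.07, adjusted p = 0.0639). URE2, a nitrogen regulator with a glutathione transferase fold, did not pass either (1.24, adjusted p = 0.0583). Of the 6 catalase, superoxide dismutase and related genes 0 passed in edgeR. An unadjusted p under 0.05, DESeq2 and limma-voom gave 1, 1 and 0 of them, beside 1158, 599 and 175 of all genes. SOD2, the mitochondrial superoxide dismutase, had 856 and 673 CPM after H2O2, against 236 and 134 CPM unstressed (2.05 ± 0.72, adjusted p = 0.122). CTT1, the cytosolic catalase, stood at only 41.0 and 21.8 CPM after H2O2, against 21.2 and 15.7 CPM unstressed (0.77, adjusted p = 0.263). SOD1, the cytosolic superoxide dismutase, and the flavohaemoglobin gene YHB1 had log2 fold changes of 1.18 and -0.91, without passing.

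Of 21 oxidoreductase and transporter genes known to be induced by oxidants 3 rose and 0 fell, beside 1.39% and 1.21% of all genes. Without overlap 17 were higher and 0 lower, beside 26.3% and 25.2% of all genes, and the median log2 fold change was 1.07. OSI1, named for its induction by oxidative stress, had 304 and 287 CPM after H2O2, against 15.4 and 31.1 CPM unstressed (3.67 ± 0.85, adjusted p = 0.0460). GCY1, an aldo-keto reductase, had 66.7 and 38.8 CPM after H2O2, against 6.84 and 9.75 CPM unstressed (2.67 ± 0.51, adjusted p = 0.0323). ZTA1, a quinone oxidoreductase, had 74.9 and 121 CPM after H2O2, against 26.2 and 23.6 CPM unstressed (1.98 ± 0.44, adjusted p = 0.0437). These genes were higher in every H2O2 library than in either unstressed one, as were all 71 genes that rose. YNL134C had 2081 and 1603 CPM after H2O2, against 324 and 177 CPM unstressed, without passing (2.88, adjusted p = 0.0660). YMR090W, an uncharacterised gene listed with the general stress effectors, showed the largest rise after TSA2 and SRX1 of the response, with 313 and 401 CPM after H2O2, against 15.1 and 8.70 CPM unstressed (4.91 ± 1.08, adjusted p = 0.0437).

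The pentose phosphate pathway supplies NADPH for the thiol systems. Of 19 genes of this pathway and of other NADPH enzymes 4 rose, beside 1.39% of all genes, and 0 fell. SOL4, NQM1 and GND2 are minor copies of enzymes of the pathway, and UTR1 encodes an NAD kinase that makes NADP. SOL4, a 6-phosphogluconolactonase, had 84.2 and 85.4 CPM after H2O2, against 6.42 and 1.94 CPM unstressed (4.35 ± 0.65, adjusted p = 0.0162). NQM1, a transaldolase, had 21.4 and 22.5 CPM after H2O2, against 2.24 and 2.46 CPM unstressed (3.22 ± 0.52, adjusted p = 0.0162). GND2, the minor 6-phosphogluconate dehydrogenase, had 91.2 and 70.6 CPM after H2O2, against 25.3 and 11.7 CPM unstressed (2.13 ± 0.51, adjusted p = 0.0470). UTR1 had 42.3 and 50.0 CPM after H2O2, against 20.9 and 14.4 CPM unstressed (1.38 ± 0.31, adjusted p = 0.0452). The groups did not overlap for these 4, as for all 71 genes that rose. Abundant counterparts of the minor copies, and ZWF1, were chosen after their values were seen and did not pass. SOL3, GND1 and TAL1 had log2 fold changes of -0.88, -0.11 and -0.64, and ZWF1, which makes the first NADPH of the pathway, had 0.72 (adjusted p = 0.241, 0.933, 0.426 and 0.568, in that order of genes). The difference in response between such copies was not tested. The median over the list was -0.22 (0.99 and of opposite sign with library size alone). Without overlap 5 genes were higher and 9 lower, beside 26.3% and 25.2% of all genes.

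In trehalose and glycogen metabolism, which holds both the making and the breakdown of these reserve sugars, 4 of 20 genes rose, beside 1.39% of all genes, and 0 fell, with a median log2 fold change of 0.62. PGM2, the main phosphoglucomutase, had 1076 and 609 CPM after H2O2, against 106 and 39.4 CPM unstressed (3.53 ± 0.77, adjusted p = 0.0437). TSL1, a regulatory subunit of the trehalose synthase complex, had 1914 and 1394 CPM after H2O2, against 415 and 322 CPM unstressed (2.17 ± 0.53, adjusted p = 0.0482). GDB1, the glycogen debranching enzyme, rose by 1.94 ± 0.46 (adjusted p = 0.0470) and NTH1, the neutral trehalase, by 1.84 ± 0.36 (adjusted p = 0.0323). The 4 genes thus include makers and breakers of the sugars, and 0 of the 20 passed without the doubted zuo1Δ libraries. Among 35 general stress effectors 6 rose, beside 1.39% of all genes, and 0 fell. Without overlap 27 were higher and 0 lower, beside 26.3% and 25.2% of all genes, and the median was 1.30. MSC1 had 290 and 219 CPM after H2O2, against 25.4 and 19.6 CPM unstressed (3.50 ± 0.65, adjusted p = 0.0287). DCS2, a modulator of the scavenger decapping enzyme, had 121 and 111 CPM after H2O2, against 21.0 and 12.3 CPM unstressed (2.80 ± 0.44, adjusted p = 0.0162). TFS1, an inhibitor of carboxypeptidase Y, had 393 and 234 CPM after H2O2, against 74.6 and 26.8 CPM unstressed (2.63 ± 0.65, adjusted p = 0.0482). Both H2O2 libraries lay above both unstressed libraries for each of these genes, as for all 71 genes that rose. The list took 1.58% and 1.63% of counts after H2O2, against 0.389% and 0.219% unstressed, and 5 of its members passed without the doubted libraries.

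**Figure D2:**
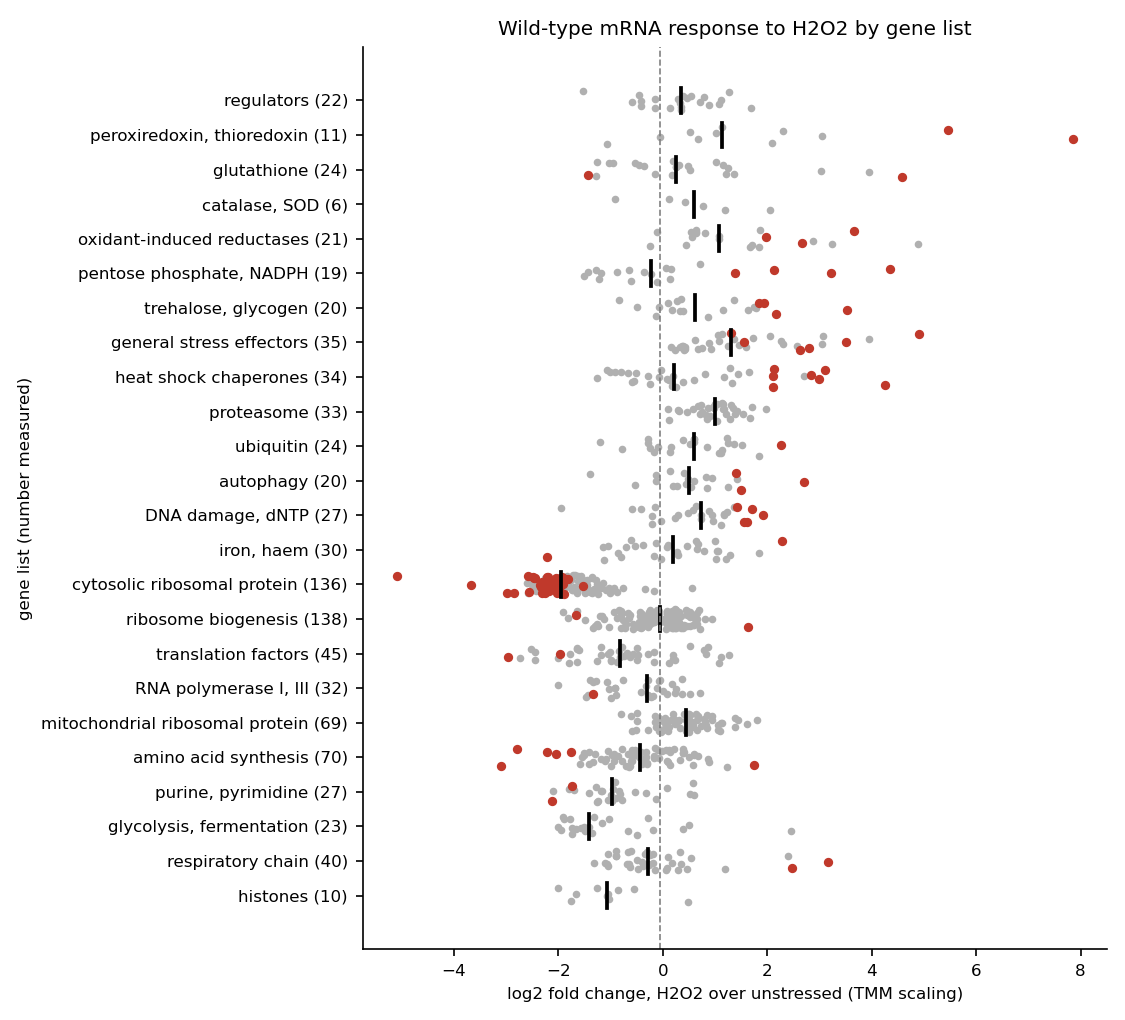
Log2 fold change of H2O2 over unstressed in wild-type mRNA (x axis) for the members of 24 gene lists (y axis, number measured in brackets). Each point is a gene, red where it passed (adjusted p under 0.05), black bars are list medians and the dashed line is the median of all genes, -0.05. Cytosolic ribosomal protein genes have the lowest median, -1.95, and general stress effectors the highest, 1.30.

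Of 34 heat shock chaperone genes 7 rose, beside 1.39% of all genes, and 0 fell, although the list's median was only 0.22. HSP12, a membrane-protecting small heat shock protein, had 63.0 and 65.2 CPM after H2O2, against 4.99 and 1.77 CPM unstressed (4.25 ± 0.67, adjusted p = 0.0162). HSP31, a methylglyoxalase of the DJ-1 family, had 288 and 366 CPM after H2O2, against 44.5 and 31.8 CPM unstressed (3.10 ± 0.54, adjusted p = 0.0225). The groups lay well apart for both. HSP30, a plasma membrane protein that restrains the proton pump, had 253 and 81.6 CPM after H2O2, against 32.2 and 9.84 CPM unstressed (2.99 ± 0.71, adjusted p = 0.0470). SSA4, an inducible cytosolic Hsp70, had 162 and 139 CPM after H2O2, against 23.7 and 18.5 CPM unstressed (2.83 ± 0.49, adjusted p = 0.0225). In HSP30, replicate 1 was the higher library of each group. The remaining 3 that passed were the disaggregases HSP104 (2.13) and HSP78 (2.12), which act in the cytosol and the mitochondria, and the small heat shock protein HSP26 (2.11). SSA1 and SSA2, the abundant copies related to SSA4, had log2 fold changes of 0.19 and -1.07 and did not pass (adjusted p = 0.893 and 0.401). Without the doubted libraries 5 of the 34 passed. Of 8 chaperone genes that act at the ribosome 0 passed in edgeR (4 at an unadjusted p under 0.05, 4 calls in DESeq2 and 0 in limma-voom), among them the Hsp70 pair SSB1 (-2.18, adjusted p = 0.0734) and SSB2 (-2.32, adjusted p = 0.0639), which are near-identical copies.

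Proteasome subunit genes were positive throughout, but 0 of 33 passed in edgeR's test. All 33 had a positive log2 fold change, from 0.11 to 1.97 with a median of 1.01, and 27 were higher and 0 lower without overlap, beside 26.3% and 25.2% of all genes. The list's share of counts was 0.694% and 1.08% after H2O2, against 0.179% and 0.209% unstressed. RPT1, an ATPase of the regulatory particle, had 323 and 402 CPM after H2O2, against 111 and 74.6 CPM unstressed (1.97 ± 0.52, adjusted p = 0.0606). RPT4, another ATPase subunit, came nearest to the threshold with 124 and 164 CPM after H2O2, against 49.1 and 39.4 CPM unstressed (1.71 ± 0.43, adjusted p = 0.0514). The deubiquitinase subunit RPN11 and the ATPase RPT3 had log2 fold changes of 1.68 (adjusted p = 0.0728) and 1.39 (adjusted p = 0.0794). At an unadjusted p under 0.05 the count was 17, and the calls were 2 in limma-voom, 6 in DESeq2 and 8 with a replicate block. Over all 5124 genes these were 1158, 175, 599 and 435 in that order. Of 24 ubiquitin genes 1 rose and 0 fell, beside 1.39% and 1.21% of all genes. This was UBC8, a conjugating enzyme for the turnover of a gluconeogenic enzyme, with 13.0 and 21.4 CPM after H2O2, against 4.43 and 2.70 CPM unstressed (2.27 ± 0.44, adjusted p = 0.0323). The polyubiquitin gene UBI4 had 496 and 330 CPM after H2O2, against 97.4 and 134 CPM unstressed, and missed the threshold (1.84, adjusted p = 0.0525).

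Of 20 autophagy genes 3 rose, beside 1.39% of all genes, and 0 fell. ATG8, the ubiquitin-like protein of the autophagosome membrane, had 15.4 and 28.7 CPM after H2O2, against 5.01 and 1.81 CPM unstressed (2.69 ± 0.58, adjusted p = 0.0437). The initiation factor ATG13, at 26.9 and 31.9 CPM after H2O2 against 11.3 and 9.43 CPM unstressed (adjusted p = 0.0437), and the cargo receptor ATG34 (1.40, adjusted p = 0.0482) were the others. APE1, a vacuolar aminopeptidase that reaches the vacuole by a form of selective autophagy, had 802 and 521 CPM after H2O2, against 76.4 and 31.0 CPM unstressed (3.62 ± 0.71, adjusted p = 0.0323). RGI1, a gene of respiratory growth, was low in all libraries yet well separated, at 19.7 and 25.2 CPM after H2O2, against 1.13 and 1.19 CPM unstressed (4.27 ± 0.54, adjusted p = 0.00934). It had the smallest adjusted p of the 15 largest rises.

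Of 27 DNA damage and deoxynucleotide genes 5 rose, beside 1.39% of all genes, and 0 fell. Without overlap 17 were higher and 1 lower, beside 26.3% and 25.2% of all genes, with a median of 0.73. RAD54, a motor protein of homologous recombination, had 60.5 and 78.4 CPM after H2O2, against 19.9 and 16.7 CPM unstressed (1.92 ± 0.34, adjusted p = 0.0225). RNR3, the inducible large subunit of ribonucleotide reductase, had 110 and 75.3 CPM after H2O2, against 25.1 and 31.5 CPM unstressed (1.71 ± 0.38, adjusted p = 0.0437). The photolyase PHR1 (1.61), the DNA glycosylase MAG1 (1.55) and the nucleotide excision repair gene RAD16 (1.42) were the others. The groups did not overlap for these 5, as for all 71 genes that rose. Of the 27 genes 1 passed without the doubted libraries. In iron and haem genes the haem oxygenase HMX1 rose, with 30.7 and 22.9 CPM after H2O2, against 7.53 and 3.51 CPM unstressed (2.28 ± 0.48, adjusted p = 0.0412), and LEU1, an iron-sulphur enzyme described with amino acid synthesis, fell. Of the 30 iron and haem genes 1 thus rose and 1 fell, beside 1.39% and 1.21% of all genes. The median of the 30 was 0.19 and turned to -0.01 without H2O2 replicate 1. Of 40 nuclear-encoded respiratory genes 2 rose and 0 fell, beside 1.39% and 1.21% of all genes. They were CYC7, the stress-type cytochrome c (3.16 ± 0.62, adjusted p = 0.0323), and STF1, a partner of the ATP synthase inhibitor (2.47 ± 0.53, adjusted p = 0.0437). The respiratory list's median was -0.29 (0.94 and of opposite sign with library size alone).

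Cytosolic ribosomal protein genes made up most of the falls. Of 136 measured 39 fell and 0 rose, and the median log2 fold change was -1.95. Without overlap 134 were lower and 1 higher, beside 25.2% and 26.3% of all genes. The 39 are 28.7% of the list, beside 1.21% of all genes that fell. RPL39 had 0.589 and 0.588 CPM after H2O2, against 5.54 and 35.0 CPM unstressed (-5.10 ± 0.89, adjusted p = 0.0225). Its mRNA level was low, with a mean of 10.4 CPM over the 4 libraries, near the limit of 10 CPM for naming. Its ribosome footprints had 658 and 697 CPM after H2O2, against 1122 and 1206 CPM unstressed, so the size of its mRNA fall is uncertain. RPL29 had 38.1 and 14.7 CPM after H2O2, against 226 and 446 CPM unstressed (-3.67 ± 0.72, adjusted p = 0.0323). Both encode proteins of the large subunit, and unstressed replicate 2 was the higher library in each. RPS30B, a small subunit gene, had 81.7 and 50.0 CPM after H2O2, against 414 and 631 CPM unstressed (-2.99 ± 0.42, adjusted p = 0.0144). RPL38, RPS29B and RPL36A fell by 2.86, 2.59 and 2.57 on the log2 scale (adjusted p = 0.0343, 0.0460 and 0.0437). Many ribosomal protein genes are near-identical pairs, so that single members are uncertain. RPL15B alone was positive, at 0.56 (adjusted p = 0.388). The list took 7.91% and 6.38% of all counts after H2O2, against 13.0% and 13.4% unstressed. In TMM-scaled CPM the list summed to 99680 and 49860 after H2O2, against 332400 and 268600 unstressed. After H2O2 the list's median log2 ratio of replicate 1 over replicate 2 was 0.81, against 0.01 for all genes. Its median stayed negative under each of the 16 alternatives, from -2.41 without H2O2 replicate 1 to -0.83 with library size alone, but the number that fell was 3 without the doubted libraries, 10 with library size alone, 123 in DESeq2 and between 0 and 25 with a library left out. The genes are short, with a median length from start to end coordinate of 783 bases, against 1281 bases for all genes. Any intron is counted in these lengths. The unstressed replicates differed by length. In unstressed cells the median log2 ratio of replicate 1 over replicate 2 was 0.36 in the 1023 shortest genes and -0.51 in the 1023 longest. With a trend on this length removed from each library, 24 of the 136 fell and the median was -1.90.

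For other growth genes the counts that passed stand beside 2.6% of all genes. Of 138 ribosome biogenesis genes 1 rose and 1 fell, the H/ACA ribonucleoprotein gene NOP10 falling by 1.67 (adjusted p = 0.0470) and the small-subunit processome gene UTP7 rising by 1.62 (adjusted p = 0.0437). The list's median equalled that of all genes at -0.05, and turned to 0.10 with upper-quartile factors and 1.23 with library size alone. Without overlap 9 of the 138 were higher and 26 lower, beside 26.3% and 25.2% of all genes. SNU13, a protein of box C/D ribonucleoproteins and of the spliceosome that lies outside the list, had 139 and 57.2 CPM after H2O2, against 574 and 593 CPM unstressed (-2.57 ± 0.52, adjusted p = 0.0358). In the 45 translation factor genes 2 fell and 0 rose, and the median was -0.82 (0.39 and of opposite sign with library size alone). The fifth of all genes with the highest level had a median of -0.73. ANB1, one of a pair of eIF5A genes, had 9.22 and 2.87 CPM after H2O2, against 59.6 and 35.7 CPM unstressed (-2.96 ± 0.62, adjusted p = 0.0415). TIF2, one of a pair of identical-protein eIF4A genes, fell by 1.97 (adjusted p = 0.0482), while its copy TIF1 had -1.65 and did not pass (adjusted p = 0.0766), and reads of the pair may be shared. RPO26, a subunit common to the RNA polymerases, was the 1 of 32 RNA polymerase I and III genes that passed, and fell by 1.35 (adjusted p = 0.0470). The median of that list was -0.30 (0.90 and of opposite sign with library size alone). Mitochondrial ribosomal protein genes lay on the other side, with 0 of 69 passed in edgeR (18 at an unadjusted p under 0.05, 6 calls in DESeq2 and 1 in limma-voom), 35 higher and 5 lower without overlap (26.3% and 25.2% of all genes), and a median of 0.44. Over all 5124 genes 1158 had an unadjusted p under 0.05, with 599 calls in DESeq2 and 175 in limma-voom.

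Of 70 amino acid synthesis genes 5 fell and 1 rose, beside 1.21% and 1.39% of all genes. GLT1, the glutamate synthase, had 514 and 370 CPM after H2O2, against 2400 and 5176 CPM unstressed (-3.10 ± 0.62, adjusted p = 0.0326). ILV3, an iron-sulphur dehydratase of branched-chain amino acid synthesis, had 1039 and 506 CPM after H2O2, against 6325 and 4385 CPM unstressed (-2.79 ± 0.63, adjusted p = 0.0437). Each H2O2 library was below each unstressed library for both, as for all 62 genes that fell. The leucine enzymes LEU1 (-2.23, adjusted p = 0.0437) and LEU9 (-2.06, adjusted p = 0.0323) and the branched-chain transaminase BAT1 (-1.75, adjusted p = 0.0454) also fell. The gene that rose was GLN1, glutamine synthetase, with 795 and 562 CPM after H2O2, against 218 and 186 CPM unstressed (1.75 ± 0.39, adjusted p = 0.0437). The list's median was -0.43 (0.74 and of opposite sign with library size alone). In purine and pyrimidine synthesis 2 of 27 genes fell and 0 rose, beside 1.21% and 1.39% of all genes. They were the GMP synthase GUA1 (-2.13, adjusted p = 0.0437) and the orotate phosphoribosyltransferase URA5 (-1.75, adjusted p = 0.0482). Without overlap 22 of the 27 genes were lower and 3 higher, beside 25.2% and 26.3% of all genes. Their median was -0.98 (0.22 and of opposite sign with library size alone).

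Glycolysis and fermentation genes held the largest block of counts, at 24.8% and 13.7% after H2O2, against 34.6% and 26.4% unstressed. Of the 23, 0 passed in edgeR. An unadjusted p under 0.05, DESeq2 and limma-voom gave 10, 12 and 0 of them, beside 1158, 599 and 175 of all genes. The median log2 fold change was -1.41, and without overlap 16 were lower and 1 higher, beside 25.2% and 26.3% of all genes. The 1 that was higher was TDH1, the stress-linked copy of glyceraldehyde-3-phosphate dehydrogenase, with 3984 and 1264 CPM after H2O2, against 722 and 239 CPM unstressed (2.45 ± 0.79, adjusted p = 0.0998). Its abundant copy TDH3 had 74000 and 19150 CPM after H2O2, against 238900 and 119000 CPM unstressed (-1.94 ± 1.01, adjusted p = 0.270). In TDH1 and TDH3 replicate 1 was the higher library of each group, and the groups did not overlap. Pyruvate kinase CDC19 (-1.92, adjusted p = 0.105) and phosphoglycerate mutase GPM1 (-1.74, adjusted p = 0.0813) did not pass. Of 10 histone genes 0 passed in edgeR (7 at an unadjusted p under 0.05, 3 calls in DESeq2 and 2 in limma-voom), at a median of -1.06 (0.14 with library size alone). Without overlap 9 of them were lower and 1 higher, beside 25.2% and 26.3% of all genes.

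**Figure D3:**
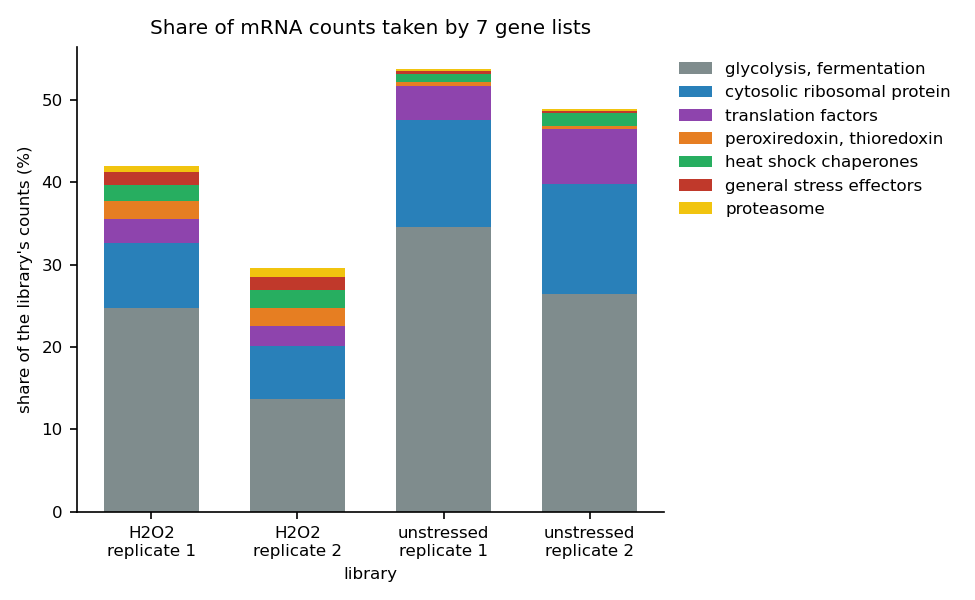
Share of each library's mRNA counts (y axis, %, bars from 0) taken by 7 gene lists in the 2 H2O2 and 2 unstressed wild-type libraries. Shares are of the library total. Glycolysis and ribosomal protein genes take 24.8% and 7.91% in H2O2 replicate 1 and 13.7% and 6.38% in H2O2 replicate 2, against 34.6% and 13.0% in unstressed replicate 1 and 26.4% and 13.4% in unstressed replicate 2.

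**Figure D4:**
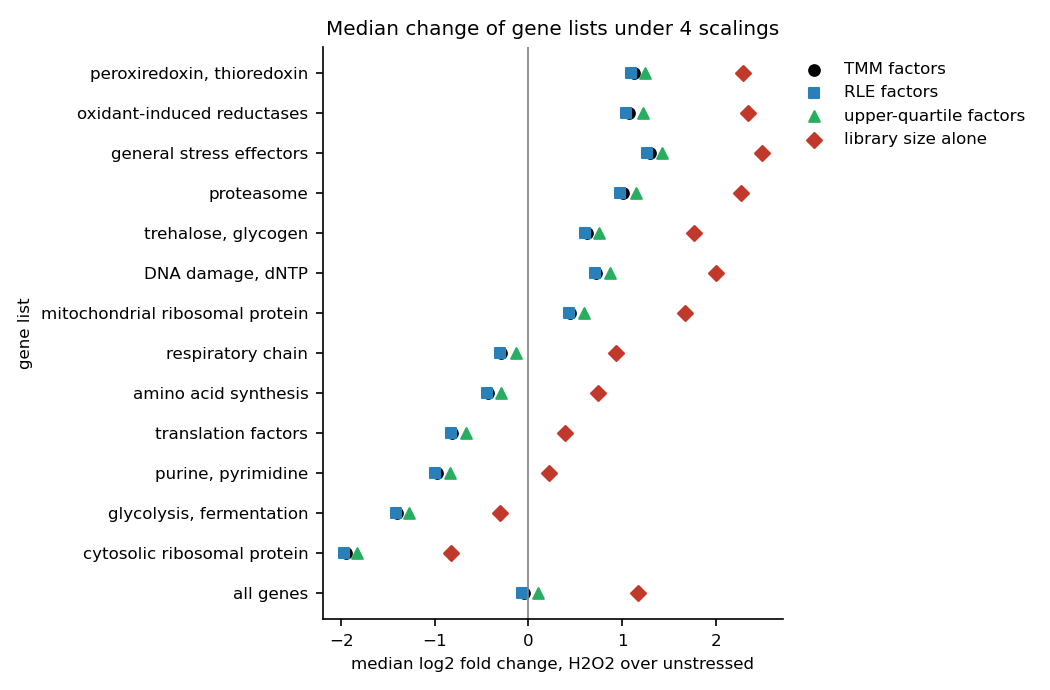
Median log2 fold change of H2O2 over unstressed (x axis) for 13 gene lists and for all genes (y axis) under 4 scalings, each a marker shape. TMM and RLE factors lie together, upper-quartile factors slightly higher, and library size alone shifts the median of all genes from -0.05 to 1.17, which turns the sign of 4 of the lists shown.

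Ribosome footprints of the same strain and treatment, in libraries other than the 4 above, moved with the mRNA for most of the 133 genes. In footprints 925 of 5094 genes passed (18.2%), with 417 higher (8.19%) and 508 lower (9.97%); library size alone gave 926 higher and 254 lower. Of the 71 genes that rose in mRNA 52 (73.2%) rose in footprints, and of the 62 that fell 46 (74.2%) fell, with 0 passing in the opposite direction in either set. Those 52 and 46 genes are 12.5% of the footprint rises and 9.06% of the footprint falls. The footprint assay had the lower biological coefficient of variation, 0.170 against 0.318 in mRNA. The labels do not say whether footprints and mRNA came from the same cultures. TSA2 footprints had 2771 and 2882 CPM after H2O2, against 15.9 and 17.5 CPM unstressed, a log2 fold change of 7.40 beside 7.86 in mRNA. OSI1 footprints had 231 and 222 CPM after H2O2, against 2.17 and 1.35 CPM unstressed (adjusted p = 0.0229), beside 304 and 287 CPM, against 15.4 and 31.1 CPM, in mRNA. Over the 62 genes that fell in mRNA the median log2 fold change was -0.77 in footprints, beside -2.15 in mRNA, the assay that chose them. RPL39 was at -0.78 in footprints beside -5.10 in mRNA, and RPS30B at -0.49 without passing (adjusted p = 0.185) beside -2.99. Of 136 ribosomal protein genes 103 fell in footprints, with a median of -0.75 beside -1.95 in mRNA. Of the proteasome genes, 23 of 33 rose in footprints with a median of 0.67 beside 1.01 in mRNA, and of the general stress effectors 25 of 35 rose with a median of 2.08 beside 1.30. Of 138 ribosome biogenesis genes 0 rose and 32 fell in footprints, with a median of -0.59 beside -0.05 in mRNA. The assays were scaled separately, with footprint TMM factors of 0.988 and 0.975 after H2O2 and 0.820 and 0.831 unstressed. The mRNA factors given above differed more between the groups. With library size alone the ribosomal protein median in mRNA was -0.83. That list took 9.71% and 9.82% of footprint counts after H2O2, against 14.4% and 14.6% unstressed. Sizes of change in the assays are thus not on a common scale, and differences between the assays were not tested here.

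**Figure D5:**
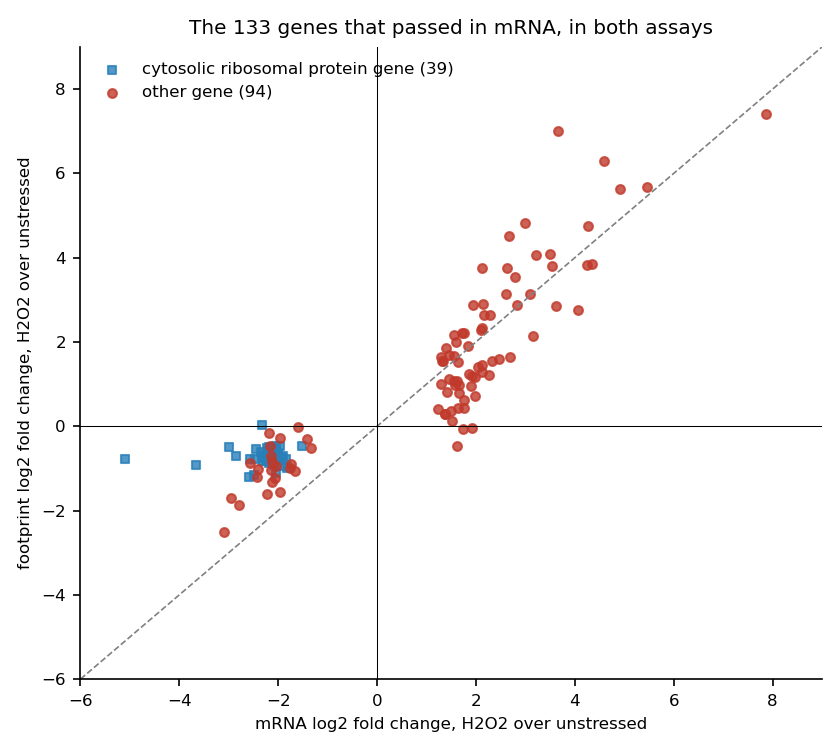
Log2 fold change of H2O2 over unstressed in mRNA (x axis) and in ribosome footprints (y axis) for the 133 genes that passed in mRNA. Squares are the 39 cytosolic ribosomal protein genes and circles the 94 others, and the dashed line marks equal change. Most squares lie above the line, with footprint values near -0.75, while the rises scatter around it. The assays were scaled separately, so distances from the line depend on the scaling.

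Set directly against heat shock, 122 genes passed in edgeR's test (2.38%), of which 47 were higher after H2O2 (0.917% of all tested) and 75 lower (1.46%), with 96 higher and 5 lower under library size alone. This comparison and that with unstressed cells use the same H2O2 libraries, and heat shock also brought fresh medium. The heat libraries held 63994179 and 7810893 counts, with TMM factors of 0.426 and 0.825. In the shallower one, heat replicate 2, the median count was 269 and 56 genes had under 10 counts. Heat against unstressed gave 35 calls (0.683%), 20 higher (0.39%) and 15 lower (0.293%). Among genes that passed this test without overlap and with a mean of 10 CPM or more, the 5 furthest in favour of H2O2 were all described above. YMR090W (3.88), SRX1 (3.76) and ECM4 (3.66) had values of similar size without passing. OSI1 had 304 and 287 CPM after H2O2, against 8.37 and 11.2 CPM after heat (4.93 ± 0.91, adjusted p = 0.0366). RGI1 had 19.7 and 25.2 CPM after H2O2, against 1.40 CPM in each heat library (4.01 ± 0.56, adjusted p = 0.0219). GTT2 (3.52), PGM2 (3.32) and MSC1 (3.17) followed, at 12.9 and 11.5 CPM, 102 and 66.0 CPM, and 31.6 and 24.7 CPM after heat in that order of genes. All 5 had heat libraries far below their H2O2 libraries. GSC2, the stress-induced glucan synthase, had 283 and 221 CPM after H2O2, against 2242 and 2003 CPM after heat (-3.08 ± 0.59, adjusted p = 0.0366). AUR1, which makes inositol phosphorylceramide, had 384 and 327 CPM after H2O2, against 3240 and 2026 CPM after heat (-2.89 ± 0.65, adjusted p = 0.0473). YOR338W (-3.15), the riboflavin transporter MCH5 (-3.08) and HTC1 (-2.93) were the others of the 5 furthest in favour of heat that passed. None of these 5 passed over unstressed cells after H2O2. HSP12 had 63.0 and 65.2 CPM after H2O2, against 120 and 129 CPM after heat, and the difference did not pass (-0.95 ± 0.59, adjusted p = 0.302). SSA4 had 162 and 139 CPM after H2O2, against 131 and 128 CPM after heat (0.22 ± 0.46, adjusted p = 0.790). TSA2 had 2179 and 2417 CPM after H2O2, against 36.9 and 54.0 CPM after heat, and this difference also missed the threshold (5.66 ± 1.68, adjusted p = 0.0681). With a length trend removed 1 gene passed between H2O2 and heat, and 0 passed without either H2O2 library or without heat replicate 1 (unadjusted p under 0.05 in 1139, 732 and 737 genes).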

How the data were processed

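The authors deposited raw read counts per gene. Per the submitters' processing notes build R64 was used with SAMtools, HISAT2, Bowtie2 and cutadapt. The sources used here do not give the counting tool or its strand setting, so overlapping genes, antisense genes and near-identical copies may share reads. Per the labels' protocols, poly(A) RNA was fragmented, amplified with 14 rounds of PCR and sequenced as paired 75 base reads; no molecular identifiers are named, so reads need not be independent molecules. Symbols, lengths and coordinates for 5198 of 5211 IDs came from the RefSeq gene table of the same build. Lengths run from start to end coordinate, so any intron is included, and 96.9% of them are multiples of 3. Emptied lines (3) were left out.

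The test was that of edgeR 4.0.16 in R 4.3.3 (quasi-likelihood test, TMM factors, filterByExpr with a minimum count of 10 and a minimum total of 15, which removed 0 of the 5124 mRNA genes), over 12 libraries in 6 groups of an assay, with Benjamini-Hochberg adjustment over all genes tested. SE was obtained by dividing the size of the log2 fold change by the root of F. The p-values measure the spread between 2 libraries a group. Named were the 15 largest rises and 10 largest falls with an adjusted p under 0.05, a mean of 10 CPM or more and no overlap of the groups, up to 4 members of each list described, 7 regulators, and 5 genes in each direction against heat; genes outside this rule were named after their values were seen. Libraries were grouped by label alone, but the comparison described, the genes and the gene lists were chosen with earlier results of these data known. Alternatives were RLE and upper-quartile factors, library size alone, no filter, DESeq2 1.42.0, limma-voom (limma 3.58.1), fits of fewer libraries or genes, a replicate block, removal of a length trend and leaving out each library. The steps were also run on simulated counts with known changes. Those counts held no shift in composition and no trend on level or length, so they do not bear on the choice of scaling. Promoter sequences were not analysed here.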

Additional observations from a re-analysis of the deposited data

How the results depend on the processing

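Of the 133 genes that passed after H2O2 (71 higher, 62 lower), the count was between 102 and 195 with RLE or upper-quartile factors, limma-voom, wild-type libraries alone, no filter, or genes above 0 in both genotypes. It was 1609 with library size alone, 599 in DESeq2, 321 with only the groups compared, 34 without the doubted zuo1Δ libraries, 435 with the replicate block and 86 with a length trend removed, and ran from 0 to 68 with a library left out. For H2O2 against heat, 122 became 858 in DESeq2, 352 with wild-type libraries alone, 693 with only the groups compared, 31 without the doubted libraries, 678 with the replicate block, 1 with a length trend removed and 0 to 73 with a library left out. Leaving out footprint libraries gave 227 to 647 calls, against 925. A group left with 1 library is assumed to vary like the others. The causes were not tested. Of the 133 genes 0 changed direction under the 16 alternatives. Of 40 genes given a value in the text without passing, 9 did. With library size alone SKN7 (1.01), HSF1 (1.14), GND1 (1.07), SOL3 (0.31), TAL1 (0.52), SSA2 (0.018) and YHB1 (0.23) were positive, and with a library left out SSA1 and TSA1 reached -0.24 and -0.20.

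The labels do not say that replicate numbers mark shared cultures. Deviations of same-numbered libraries correlated at 0.404 between H2O2 and unstressed mRNA, and with 2 pairs this does not settle the pairing.

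Among lists described in the text, medians changed sign with library size alone for pentose phosphate (0.99), ribosome biogenesis (1.23), translation (0.39), RNA polymerase (0.90), amino acid (0.74), purine and pyrimidine (0.22), respiratory (0.94), ribosome-associated chaperone (0.23) and histone genes (0.14). So did those of lists not described there, sulfate assimilation (0.71), tricarboxylic acid cycle (0.78), cyclin (0.99), ergosterol (0.64), phosphate (0.61) and Pdr1 genes (0.83), and of the mating type, strain and sporulation markers. The ribosome biogenesis median also became 0.10 with upper-quartile factors, 0.0195 with wild-type libraries alone, 0.0201 with only the groups compared and -0.37 to 0.21 with a library left out. The iron median ran from -0.0118 to 0.34 with a library left out. The biological coefficient of variation was 0.318 in mRNA, and the effect of depth was not tested.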
